A study of Macaca mulatta with 12 samples.

Results

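TEK, KDR, PECAM1 and PTPRB are 4 genes known for their part in blood vessel endothelium, followed here through every array of a microarray study of rhesus monkey embryonic stem (ES) cells and skin fibroblasts. All probe sets whose platform annotation carried one of these 4 symbols were taken, which gave 11 probe sets of 52766 on the array, for 4 of 12993 named genes. TEK had 2 probe sets, KDR 1, PECAM1 3 and PTPRB 5. The genes were chosen with their levels in these arrays already known, so those levels are described, and no p-value is given for them. Adjusted p-values are given only for other genes. The lists of those genes were also chosen with earlier results of these data known, which their p-values and counts do not allow for.

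The study measured 12 arrays in 4 groups of 3, lettered A, B and C, and set ES cells from parthenogenetic embryos against ES cells from a fertilised embryo. ORMES-22 is a biparental female ES line from a blastocyst made by in vitro fertilisation, sampled at passages 18, 21 and 19. rPESC-2 is a female ES line from a parthenogenetic blastocyst, described as a heterozygous parthenote, at passages 16, 10 and 16. ORMES-9 is a female ES line described as a homozygous parthenote, at passages 13, 14 and 16, although its source entry names an in vitro fertilised blastocyst. The fibroblasts came from the back skin of an adult male monkey and were the somatic control. The ES lines were kept on feeder layers of mouse embryonic fibroblasts, and colonies that looked undifferentiated were picked, whereas the fibroblasts had no feeders and a medium with less serum. Each ES group is 1 line, so line and genotype cannot be told apart. Every ORMES-22 array came from a later passage than any array of rPESC-2 or ORMES-9. In the comparisons with ORMES-22, passage therefore cannot be told apart from line either. In the fibroblast comparison sex, feeders and medium cannot be told apart from cell type. The labels call A, B and C biological replicates without saying that they came from separate animals, so errors and p-values measure the spread between these arrays, which may be technical.

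TEK (also TIE2) is the receptor tyrosine kinase for angiopoietins. KDR (also VEGFR2) is the main signalling receptor for VEGFA and is also used as a mark of mesoderm that can form vessels and blood. PECAM1 (CD31) is an adhesion receptor at endothelial junctions, present on platelets and leukocytes as well, and PTPRB (VE-PTP) is a receptor phosphatase that acts on TEK, KDR and the junction protein CDH5.

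Levels are log2 signals as the authors deposited them, and they are compared between groups within a probe set, never between probe sets. A level of 4.26 serves here as the background mark, since 90 percent of the values of 42 control probe sets for bacterial RNA lay at or below it. Array medians lay between 5.01 and 5.10. Array A of ORMES-22 stood apart from its group, with correlations of 0.986 and 0.984 with B and C over all probe sets, where B and C reached 0.993. The other 3 groups held together at 0.994 to 0.997. The pluripotency gene POU5F1 averaged 13.12, 12.87 and 12.91 in ORMES-22, rPESC-2 and ORMES-9 and 4.90 in fibroblasts, as the cell type labels have it.

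The data go against a reading of the 4 genes as a group expressed in ES cells. Only 1 probe set, the brighter one of TEK, was well above background and much higher in ES cells than in fibroblasts. KDR lay near background on all 12 arrays. The 3 probe sets of PECAM1 and the 5 of PTPRB were highest in fibroblasts.

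**Figure D1:**
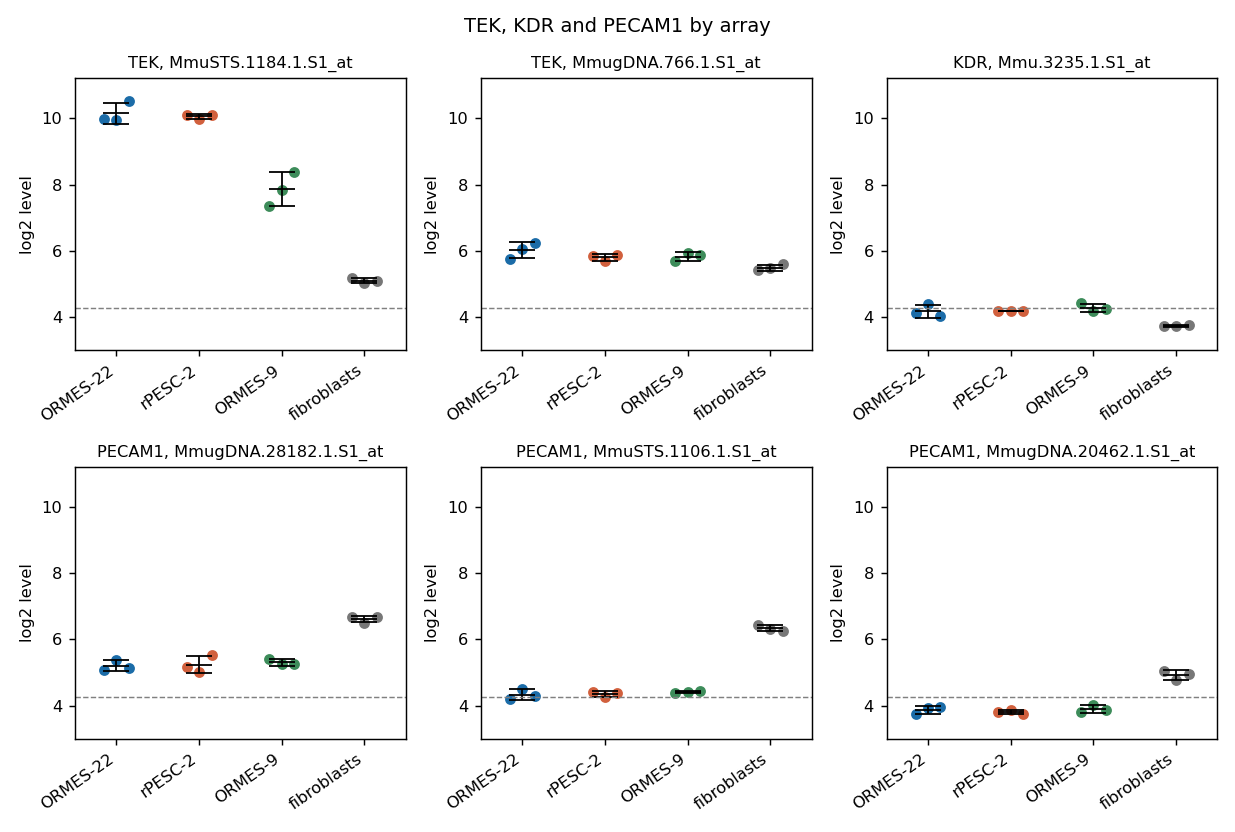
Log2 levels of TEK, KDR and PECAM1 by array, with 1 panel for each probe set and 1 point for each array. Black bars give the mean ± SD of 3 arrays, and the dashed line is the background mark at 4.26. The TEK probe set MmuSTS.1184.1.S1_at falls from 10.15 in ORMES-22 to 5.10 in fibroblasts, KDR stays near the line, and the PECAM1 probe sets rise in fibroblasts.

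Among the receptor kinases, TEK was high in the biparental line and in rPESC-2, about 2 log2 units lower in ORMES-9, and low in fibroblasts, as read by the probe set MmuSTS.1184.1.S1_at. Its levels were 9.99, 9.94 and 10.51 in ORMES-22 (mean 10.15 ± 0.32, SD, n = 3) and 10.09, 9.98 and 10.10 in rPESC-2 (10.06 ± 0.07, SD, n = 3). In ORMES-9 they were 7.36, 7.82 and 8.38 (7.85 ± 0.51, SD, n = 3), and in fibroblasts 5.17, 5.04 and 5.09 (5.10 ± 0.06, SD, n = 3). All 12 arrays lay above the background mark. The ranges of ORMES-22 and rPESC-2 overlapped, every ORMES-9 array lay below both, and every fibroblast array lay below ORMES-9.

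For this TEK probe set, ORMES-9 minus ORMES-22 was -2.29 (standard error 0.21), or 4.9-fold lower, and ORMES-9 minus rPESC-2 was -2.21 (0.21), or 4.62-fold lower. The difference between rPESC-2 and ORMES-22 was -0.09 (0.21), within the spread of the arrays. Fibroblasts lay 4.25 log2 units under the mean of the ES lines, 5.10 against 9.35, a difference of -4.25 (0.17) or 19.1-fold. Within ORMES-9 the arrays spread over about a log2 unit, the widest of the 4 groups. They rose in the order of their passages, 13, 14 and 16, and a part of passage was not tested. Leaving out each array in turn kept ORMES-9 minus ORMES-22 between -2.56 and -2.05.

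The other TEK probe set, MmugDNA.766.1.S1_at, did not show this pattern. It read 5.76, 6.05 and 6.23 in ORMES-22, 5.85, 5.69 and 5.86 in rPESC-2, and 5.69, 5.93 and 5.86 in ORMES-9, so that the 3 ES lines overlapped. Fibroblasts gave 5.41, 5.47 and 5.59, below all 9 ES arrays, with a difference of -0.39 (0.09) or 1.31-fold. ORMES-9 minus ORMES-22 was -0.19 (0.12) here against -2.29 in MmuSTS.1184.1.S1_at. The lower TEK level of ORMES-9 therefore rests on 1 of 2 probe sets. Over the 9 ES arrays the TEK probe sets correlated at 0.38, and over all 12 at 0.78, a description over arrays that share lines and processing.

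KDR, the VEGFA receptor, was read by 1 probe set and lay above the background mark on 2 of 12 arrays. Its levels were 4.11, 4.40 and 4.03 in ORMES-22 (4.18 ± 0.19, SD, n = 3), 4.19 on each of the 3 rPESC-2 arrays, and 4.42, 4.19 and 4.24 in ORMES-9 (4.28 ± 0.12, SD, n = 3). Fibroblasts gave 3.72, 3.72 and 3.76 (3.74 ± 0.02, SD, n = 3). The ES lines overlapped, with differences between them of 0.01 to 0.10, and the fibroblasts lay below their mean by 0.48. With the ES levels around the background mark and the fibroblasts under it, no fold is given.

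PECAM1, the adhesion receptor, was higher in fibroblasts in all 3 of its probe sets, and the ES lines overlapped in each. MmugDNA.28182.1.S1_at read 5.08, 5.39 and 5.14 in ORMES-22, 5.16, 5.02 and 5.52 in rPESC-2, and 5.42, 5.25 and 5.25 in ORMES-9, against 6.68, 6.51 and 6.67 in fibroblasts. No ES array reached the lowest fibroblast array. The mean rose by 1.37 (0.10), which is 2.59-fold. Between the ES lines this probe set differed by 0.04 to 0.11.

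MmuSTS.1106.1.S1_at gave the widest PECAM1 difference, 1.97 (0.08) or 3.93-fold, with fibroblasts at 6.45, 6.33 and 6.25 (6.35 ± 0.10, SD, n = 3). Its ES arrays ran from 4.19 to 4.52, around the background mark, so the fold depends on a level that the array barely separated from background. MmugDNA.20462.1.S1_at was under that mark on all 9 ES arrays and read 5.05, 4.77 and 4.95 in fibroblasts (4.92 ± 0.14, SD, n = 3). It was 1.06 (0.08) higher there. Without fibroblast array A that value was 0.99, just under 2-fold. The PECAM1 probe sets moved together, with correlations of 0.95 to 0.98 over the 12 arrays, most of which is the step from ES cells to fibroblasts. Over the 9 ES arrays alone their correlations were 0.63, -0.17 and 0.30.

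**Figure D2:**
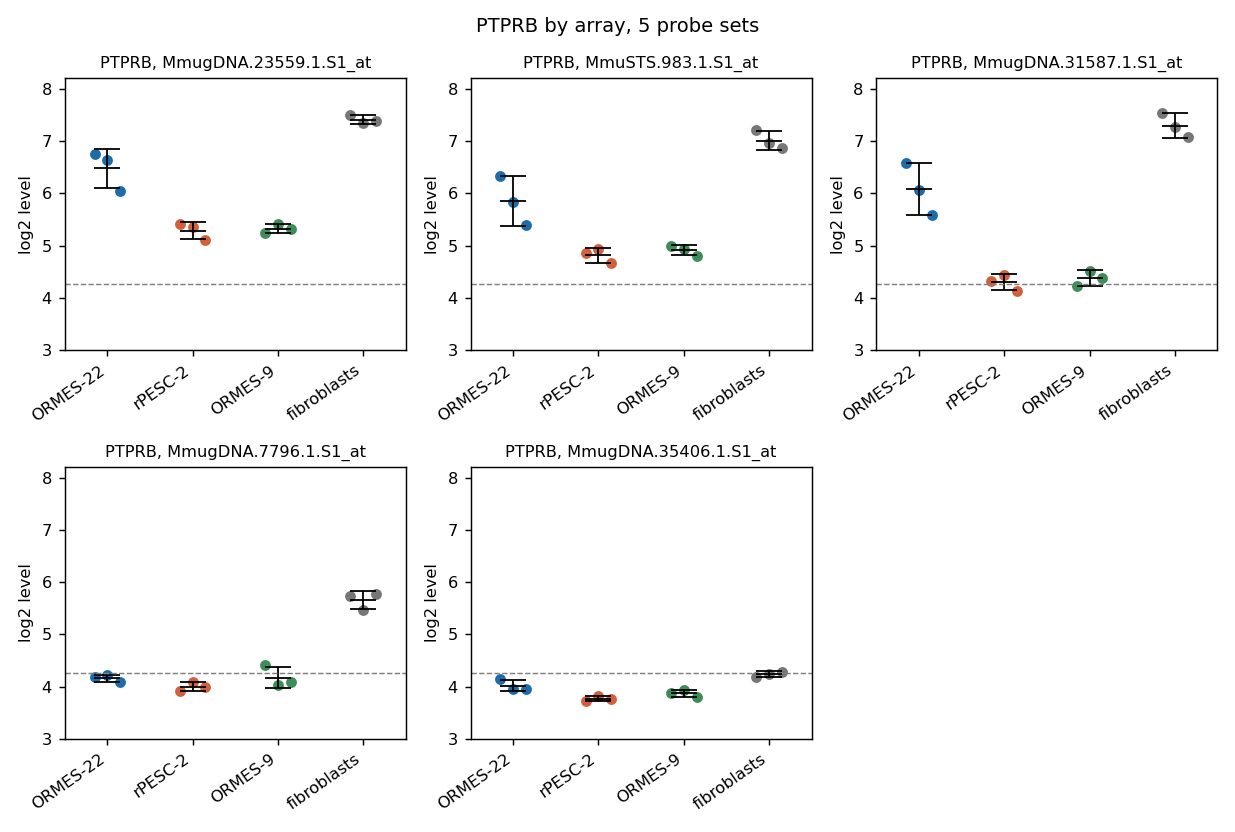
Log2 levels of the 5 PTPRB probe sets by array, with points for single arrays, bars for the mean ± SD of 3 arrays and a dashed line at the background mark of 4.26. In the 3 panels of the upper row fibroblasts are highest, ORMES-22 is next with a wide spread, and rPESC-2 and ORMES-9 overlap at the bottom.

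PTPRB, the phosphatase that acts on TEK, was highest in fibroblasts, lower in the biparental ES line and lowest in both parthenogenetic lines in 3 of its 5 probe sets. MmugDNA.23559.1.S1_at read 7.50, 7.35 and 7.39 in fibroblasts (7.41 ± 0.08, SD, n = 3) and 6.75, 6.64 and 6.05 in ORMES-22 (6.48 ± 0.37, SD, n = 3). It read 5.41, 5.35 and 5.11 in rPESC-2 (5.29 ± 0.16, SD, n = 3) and 5.25, 5.41 and 5.32 in ORMES-9 (5.33 ± 0.08, SD, n = 3). The fibroblast, ORMES-22 and parthenogenetic arrays formed 3 ranges that did not overlap, while rPESC-2 and ORMES-9 shared a range.

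Against ORMES-22, this PTPRB probe set was -1.19 (0.15) in rPESC-2, or 2.28-fold lower, and -1.15 (0.15) in ORMES-9, or 2.23-fold lower. The parthenogenetic lines differed by 0.04 (0.15). The fibroblasts were 1.71 (0.13) above the mean of the ES lines, or 3.28-fold. Measured against ORMES-22 alone the gap was smaller, since the 3 fibroblast arrays began at 7.35 and the highest ORMES-22 array stood at 6.75.

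MmugDNA.31587.1.S1_at showed the same order with wider steps. ORMES-22 arrays were at 6.59, 6.06 and 5.59, rPESC-2 at 4.33, 4.44 and 4.14, ORMES-9 at 4.22, 4.52 and 4.39, and fibroblasts at 7.54, 7.27 and 7.07. The differences from ORMES-22 were -1.78 (0.21) in rPESC-2 and -1.70 (0.21) in ORMES-9, with both parthenogenetic lines around the background mark. The fibroblasts stood 2.37 (0.17) above the ES mean, or 5.18-fold, a value that depends on ES levels of which most were near background.

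MmuSTS.983.1.S1_at followed, at 6.34, 5.83 and 5.39 in ORMES-22 and 4.86, 4.94 and 4.66 in rPESC-2. ORMES-9 read 5.00, 4.93 and 4.81 and fibroblasts 7.21, 6.96 and 6.86. The difference from ORMES-22 was -1.03 (0.19) in rPESC-2 and -0.94 (0.19) in ORMES-9. Leaving out 1 array moved this probe set across 2-fold: the rPESC-2 difference was -0.79 without ORMES-22 array A and -0.95 without rPESC-2 array C, and the ORMES-9 difference was -1.17 without ORMES-22 array C. Over the 9 ES arrays these 3 PTPRB probe sets correlated at 0.97 to 0.99.

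The remaining PTPRB probe sets were near background in ES cells. MmugDNA.7796.1.S1_at had ES arrays from 3.91 to 4.41 and fibroblasts at 5.74, 5.47 and 5.78, a difference of 1.55 (0.09). MmugDNA.35406.1.S1_at stayed at or below the mark in nearly every array, with fibroblasts at 4.18, 4.25 and 4.29 and a difference of 0.35 (0.06). Neither separated ORMES-22 from the parthenogenetic lines by more than 0.24. The lower PTPRB level in the parthenogenetic lines was thus carried by the 3 probe sets that lay above background in ORMES-22.

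ORMES-22 had the widest spread in all 3, and array A, which stood apart over all probe sets, was its highest. Leaving out that array gave -1.05 in rPESC-2 and -1.02 in ORMES-9 for MmugDNA.23559.1.S1_at, and -1.52 and -1.45 for MmugDNA.31587.1.S1_at. Since PTPRB was high in fibroblasts, fibroblast genes were set beside it. The mean log2 level of the 10 measured genes of a fibroblast list, of which 7 were called higher in fibroblasts and 1, FBLN1, lower (-2.07), was 8.46, 8.85 and 8.60 in ORMES-22 A, B and C, where PTPRB was highest in A. It was 8.44, 8.31 and 7.95 in rPESC-2, 8.24, 8.33 and 8.50 in ORMES-9, and 10.87 to 10.98 in fibroblasts. The list did not move as one: DCN and THY1 read -0.43 and -0.31 in fibroblasts. Between ES lines, COL1A1, a collagen, was lower in both parthenogenetic lines, at -0.82 in rPESC-2 (limma adjusted p = 0.011) and -0.90 in ORMES-9 (adjusted p = 0.0044) against ORMES-22. VIM, an intermediate filament gene, read -0.80 (adjusted p = 0.051) and -0.96 (adjusted p = 0.017), and THY1 -0.93 in rPESC-2 (adjusted p = 0.0053) and -0.03 in ORMES-9. All of these were under 2-fold. COL1A2, COL3A1, FBLN1, FAP and FN1 also averaged lower in both parthenogenetic lines, with limma adjusted p over 0.05. DCN and LUM did not: they averaged 7.02 and 3.59 in ORMES-22, 7.05 and 3.70 in rPESC-2, and 7.27 and 3.91 in ORMES-9. The averages of FAP and LUM lay under the background mark in every ES line, so their order there is not read. Within ORMES-22, COL1A1 read 11.11, 11.45 and 11.34 in A, B and C, lowest in A where PTPRB was highest. COL3A1, THY1, FBLN1, VIM and FN1 were also lowest in A, as was FAP, under the background mark. COL1A2 and DCN were highest in A, like PTPRB, at 9.19, 8.68 and 7.85 and at 7.38, 6.86 and 6.82. LUM was highest in A too, but lay under the background mark on these arrays. The part of such cells in the PTPRB levels was not tested. In these bulk samples fewer cells of a type and less RNA per cell cannot be told apart.

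**Figure D3:**
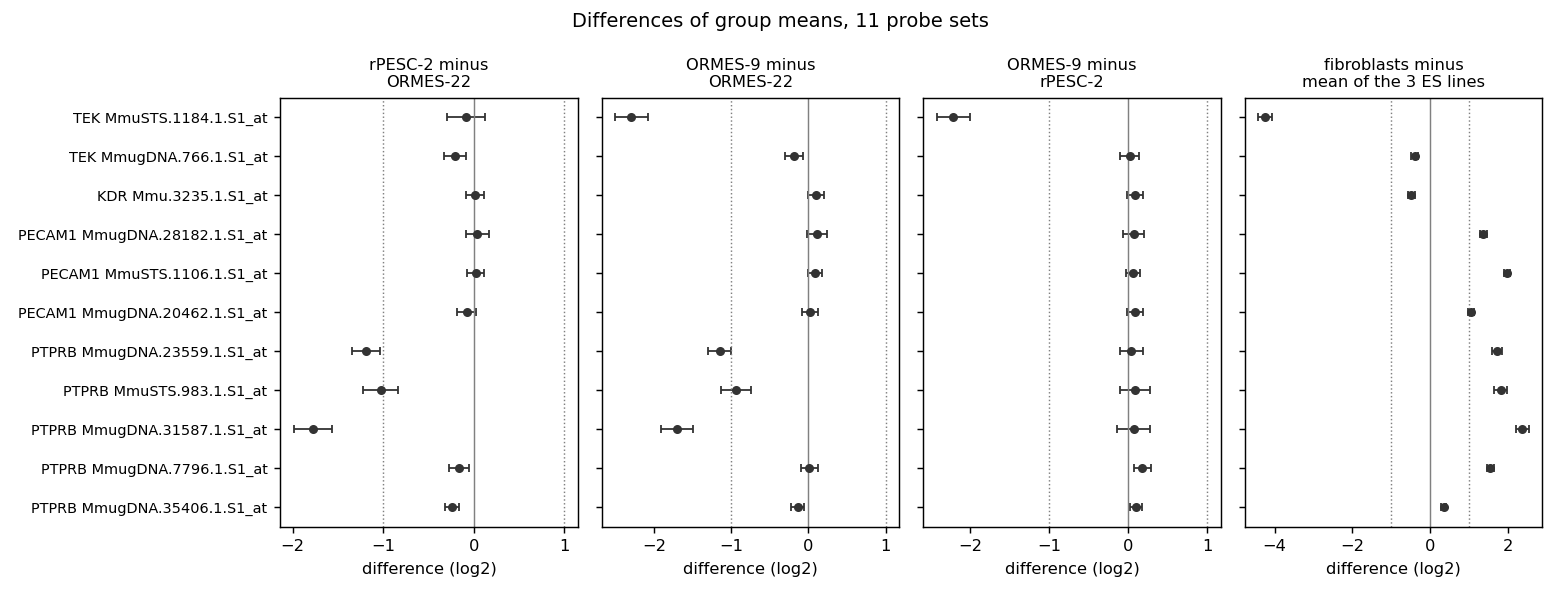
Differences of group means in log2 for the 11 probe sets, with 1 panel for each comparison and a scale of its own. Points are the difference and bars ± 1 limma standard error, the solid line marks 0 and the dotted lines 2-fold in either direction. TEK MmuSTS.1184.1.S1_at stands alone at -2.29 and -2.21 in the ORMES-9 comparisons. Where ORMES-22 is the reference, 3 PTPRB probe sets lie at -0.94 or further left, and the rest of PTPRB between -0.24 and 0.01. PECAM1 and PTPRB lie right of 0 in fibroblasts.

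Side by side, TEK and PTPRB separated the ES lines differently. TEK set ORMES-9 apart from both other lines, whereas PTPRB set ORMES-22 apart from both parthenogenetic lines. Both ORMES-22 comparisons share the ORMES-22 arrays, so their PTPRB values are not independent of each other.

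As a description, a probe set is said to pass where limma's adjusted p was under 0.05 and the difference at least 2-fold. In rPESC-2 minus ORMES-22, 3 of the 11 probe sets passed, all lower and all of PTPRB, where 0.474% of all probe sets passed as lower. In ORMES-9 minus ORMES-22, 3 passed as lower, 1 of TEK and 2 of PTPRB, against 0.629%. In ORMES-9 minus rPESC-2, 1 of TEK passed, against 0.688%. In fibroblasts 7 passed as higher against 10.5% and 1 as lower against 8.79%. The genes were picked on these differences, so nothing is read from those counts. In fibroblasts all 11 had ranges that did not overlap the ES arrays, 8 above and 3 below with KDR, near background, among the latter, where 18.3% of all probe sets lay above and 27.7% below in this way.

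Of 91 listed genes that act with these receptors or mark endothelium, 72 were measured. Between the ES lines few of them passed both limits, the adjusted p and the 2-fold difference. In rPESC-2 minus ORMES-22, 1 rose and 2 fell, or 4.17% of the list against 1.7% of all named genes. In ORMES-9 minus ORMES-22 the count was again 1 and 2, 4.17% against 2.29%, and in ORMES-9 minus rPESC-2 1 fell, 1.39% against 1.65%. A further 5, 2 and 1 genes had an adjusted p under 0.05 with a difference under 2-fold. The median differences were -0.10, -0.05 and 0.04, where those of all named genes were -0.03, -0.01 and 0.02.

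Ligands came first in the order of the pathway. ANGPT1, the ligand that activates TEK, was at background in all 3 ES lines and rose in fibroblasts. It lay between 3.91 and 4.04 on the 9 ES arrays and at 7.37, 6.92 and 7.10 in fibroblasts, a difference of 3.18 (standard error 0.08, limma adjusted p = 6.8e-12) or 9.03-fold over an ES level at background. Of its other probe sets 2 rose by 2.28 and 2.33 and 1 read -0.16. TEK and ANGPT1 thus ran opposite ways between ES cells and fibroblasts. The related ligand ANGPT4 differed by 0.13, and ANGPT2 was not measured here under its symbol.

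TIE1, the partner receptor of TEK, did not share its pattern. It averaged 5.07, 4.84 and 4.79 in ORMES-22, rPESC-2 and ORMES-9 and 4.55 in fibroblasts, a fibroblast difference of -0.35 (0.08, limma adjusted p = 0.0028) that was under 2-fold. ORMES-9 minus ORMES-22 was -0.28 (0.10, adjusted p = 0.15), where TEK differed by -2.29.

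None of the 2 VEGF ligands and 4 other receptors measured passed both limits between ES lines by the probe set used for the counts, and at an unadjusted limma p under 0.05 there were 0 ligands and 1 receptor in each comparison. NRP2, a co-receptor, read -0.57 in rPESC-2 minus ORMES-22 (limma adjusted p = 0.021), under 2-fold. VEGFB, a ligand of FLT1, averaged 8.67 in fibroblasts and 7.93, 8.06 and 8.01 in ORMES-22, rPESC-2 and ORMES-9, a difference of 0.67 (0.17, limma adjusted p = 0.0043) under the 2-fold limit. VEGFA, VEGFC and VEGFD were not measured here under their symbols. Of the 4 other VEGF receptors and co-receptors, 2 rose in fibroblasts, while FLT4 differed by -0.33 and NRP2 by -0.63.

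NRP1, the co-receptor that KDR shares with semaphorins, rose by 3.05 (0.12, limma adjusted p = 4.4e-10) or 8.26-fold. It ran from 5.30 to 6.25 in ES arrays and stood at 8.63, 8.72 and 8.70 in fibroblasts, though its other probe sets read 0.01 and 0.93. The latter, MmugDNA.2717.1.S1_at, was 1.13 higher in rPESC-2 than in ORMES-22 (0.17, limma adjusted p = 0.0026), where the NRP1 probe set used for the counts read -0.26. FLT1, which binds VEGFA and PGF, rose by 1.04 (0.08, limma adjusted p = 2.8e-07). That was 2.06-fold over ES levels around the background mark, and the other FLT1 probe set read -0.16. Without fibroblast array A the FLT1 difference was 0.95 and under 2-fold.

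**Figure D4:**
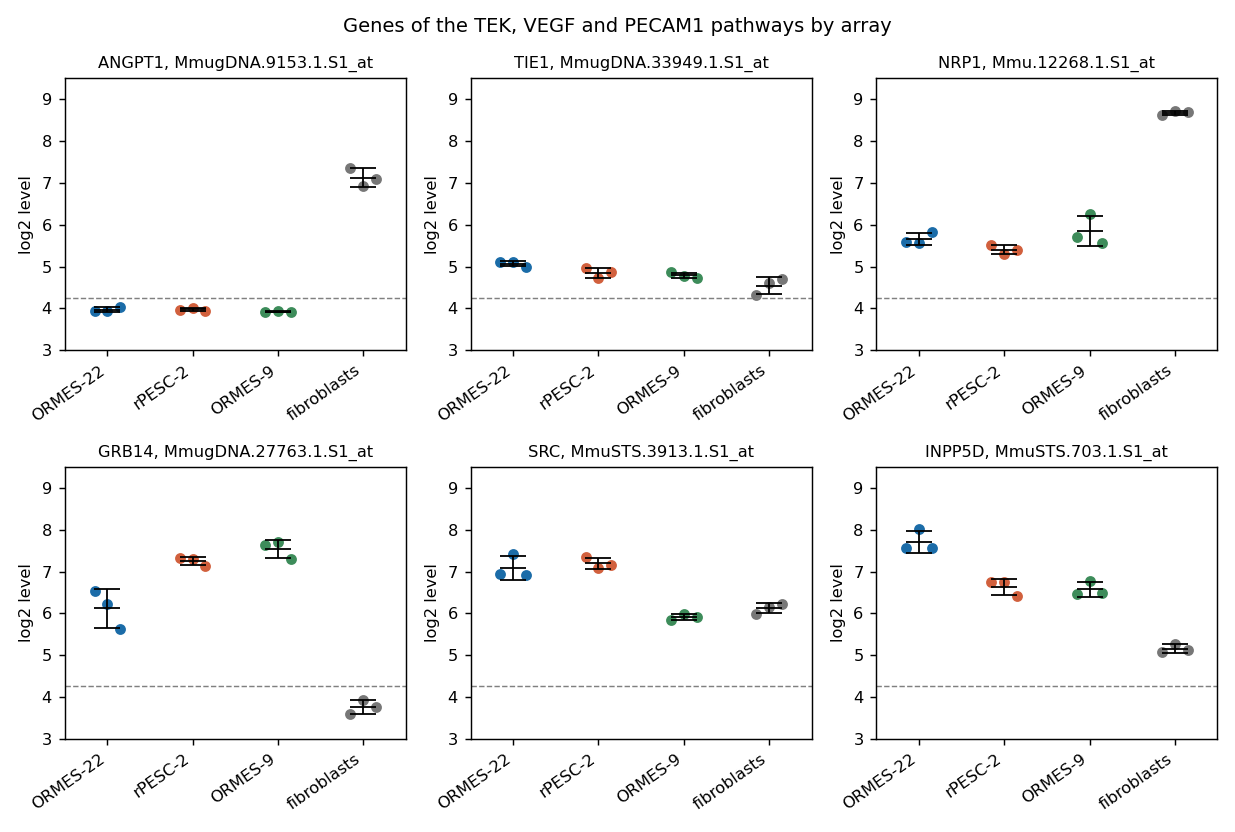
Log2 levels by array of 6 genes that act with TEK, KDR or PECAM1, with points for single arrays, bars for the mean ± SD of 3 arrays and a dashed line at the background mark of 4.26. ANGPT1 and NRP1 are highest in fibroblasts, GRB14 and INPP5D divide ORMES-22 from both parthenogenetic lines in opposite directions, and SRC is low in ORMES-9.

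Downstream of the receptors, GRB14 was the gene that passed both limits as higher in both parthenogenetic lines. GRB14 is an adaptor that binds activated receptor kinases. It read 6.53, 6.22 and 5.62 in ORMES-22, 7.33, 7.30 and 7.14 in rPESC-2, 7.63, 7.70 and 7.31 in ORMES-9, and 3.60, 3.92 and 3.76 in fibroblasts. ORMES-22 and the parthenogenetic lines did not overlap. The rise was 1.14 (0.19, limma adjusted p = 0.0056) in rPESC-2 and 1.43 (0.19, adjusted p = 0.00079) in ORMES-9. In fibroblasts, with levels under the background mark, it fell by 3.22. Without ORMES-22 array C the rPESC-2 difference was 0.89. The adaptor GRB7 was also higher than in ORMES-22, under 2-fold. It read 0.48 in rPESC-2 (limma adjusted p = 0.046) and 0.41 in ORMES-9 (adjusted p = 0.075). Its other probe set read 0.94 (adjusted p = 0.00077) and 0.74 (adjusted p = 0.0024).

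SRC, the kinase that links KDR to junctions, fell in ORMES-9, the line with the low TEK level. Its arrays were at 6.94, 7.43 and 6.91 in ORMES-22, 7.34, 7.08 and 7.17 in rPESC-2, and 5.85, 5.98 and 5.91 in ORMES-9. The differences were -1.18 (0.13, limma adjusted p = 0.00021) and -1.29 (0.13, adjusted p = 0.00013). As with TEK, the change was seen in 1 probe set, and the 3 others of SRC read -0.08, -0.17 and 0.06 in ORMES-9 minus ORMES-22.

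INPP5D, the inositol phosphatase SHIP1 that can bind the tail of PECAM1, fell in both parthenogenetic lines. It read 7.56, 8.01 and 7.57 in ORMES-22, 6.75, 6.75 and 6.42 in rPESC-2, and 6.47, 6.78 and 6.48 in ORMES-9. The differences were -1.07 (0.14, limma adjusted p = 0.001) and -1.14 (0.14, adjusted p = 0.00042). Its other probe set gave -0.61 and -0.37, short of 2-fold. Without ORMES-22 array B the differences were -0.93 and -0.99, and without rPESC-2 array C the former was -0.96.

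SVEP1, a large secreted matrix protein, fell in rPESC-2 by 1.74 (0.41, limma adjusted p = 0.033), with ORMES-22 arrays at 6.92, 8.88 and 8.73 and rPESC-2 at 6.76, 6.38 and 6.17. ORMES-22 array A lay near the rPESC-2 arrays. The difference was -1.39 without ORMES-22 array B (adjusted p = 0.12) and -1.46 without C (adjusted p = 0.1), so this call depended on which arrays entered. It also rested on 1 of 4 probe sets, the others reading -0.28, -0.37 and -0.22. Without rPESC-2 array A, B or C it was -1.90 (0.054), -1.71 (0.12) and -1.61 (0.094) with the adjusted p in brackets. Leaving out fibroblast array A, B or C also ended the call, at adjusted p of 0.054, 0.056 and 0.055.

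In fibroblasts, 18 of the 72 pathway genes rose and 11 fell, 40.3% of the list against 28.3% of all named genes. The median difference was -0.08 against -0.15. Of 7 TEK signalling genes 3 rose and 2 fell. PIK3R1, the regulatory subunit of PI3-kinase, rose by 3.32 (0.16, limma adjusted p = 2.9e-09), PIK3CA, the catalytic subunit, by 1.19, and SVEP1 by 1.87, where its other probe sets read 1.98, 2.51 and 0.02. The adaptors GRB14 and GRB7 fell, GRB7 by 1.30.

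Of 12 VEGF receptor signalling genes 3 rose in fibroblasts and 2 fell. The kinases MAPK3 and AKT1 rose by 1.07 and 1.05 and the adaptor NCK1 by 1.10. PLCG1, the phospholipase that KDR activates, fell by 1.24, and the adaptor SH2D2A by 1.20.

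Among the 5 measured PECAM1 partners none rose and 3 fell in fibroblasts, where PECAM1 itself was higher. The tyrosine phosphatase PTPN6, which docks on PECAM1, fell by 1.61 (0.15, limma adjusted p = 1.4e-06), and INPP5D by 1.82. JUP, the junction protein plakoglobin, fell by 4.03 (0.09, limma adjusted p = 2.3e-12), or 16.3-fold, though its other probe set read -0.09. Of 3 relatives of PTPRB, PTPRK fell by 1.17 and none rose.

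Endothelial surface and junction genes included 3 of 18 that rose and 2 that fell in fibroblasts, 27.8% of the list, close to the 28.3% of all named genes. PROCR, the protein C receptor, rose by 4.37 (0.16, limma adjusted p = 1.6e-10), the TGF-beta co-receptor ENG by 1.90 (0.10, adjusted p = 5.2e-09) and the water channel AQP1 by 2.02. VWF, the clotting factor stored by endothelium, fell by 1.06 and the secreted protein EGFL7 by 1.52. The other probe sets of ENG and VWF read 0.25 and -0.29, under 2-fold. CDH5, the junction cadherin on which PTPRB acts, averaged 4.53 in fibroblasts and 5.41 to 5.61 in the ES lines, a difference of -0.97 (0.11, limma adjusted p = 9.1e-06) just under 2-fold. Fibroblasts thus had more PTPRB and PECAM1 signal beside less CDH5 signal.

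Of 18 transcription factors known in endothelium, 6 rose in fibroblasts and 1 fell. EPAS1, a hypoxia-inducible factor, rose by 5.85 (0.07, limma adjusted p = 7.4e-15), or 57.8-fold, while its other probe set read 0.94. ETS1, ELK3, KLF4, MEF2C and NR2F2 rose by 2.23 to 3.12, and HEY2, a Notch target, fell by 1.31. The other probe sets of ETS1 read 0.23 and 3.64 and that of HEY2 -0.78. By the probe set used for the counts, none of the 18 passed both limits between ES lines. MEF2C at -0.94 in rPESC-2 minus ORMES-22 (limma adjusted p = 0.035) and LMO2 at -0.89 in ORMES-9 minus ORMES-22 (adjusted p = 0.043) missed only the 2-fold limit. At an unadjusted p under 0.05 there were 7 in rPESC-2 minus ORMES-22, 2 in ORMES-9 minus ORMES-22 and 3 in ORMES-9 minus rPESC-2. Other probe sets of HHEX and MEF2C did pass. HHEX MmuSTS.2514.1.S1_at read 1.95 in rPESC-2 (limma adjusted p = 0.0078) and 1.85 in ORMES-9 (adjusted p = 0.0076) against ORMES-22. MEF2C MmuSTS.2987.1.S1_at read -1.30 in rPESC-2 (adjusted p = 0.022).

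A short list of 10 endothelial marker genes did not follow PECAM1 and PTPRB, unlike PROCR, ENG and AQP1 above, which also rose in fibroblasts. Of 10 listed (TIE1, CDH5, CLDN5, ESAM, ICAM2, EMCN, ROBO4, VWF, ERG and SOX18) 9 were measured and 1, VWF, fell in fibroblasts. None passed limma's test between ES lines, where 4, 2 and 2 had an unadjusted p under 0.05 in the 3 comparisons in the same order. Their mean log2 level ran from 5.21 to 5.35 in ORMES-22, 5.05 to 5.25 in rPESC-2, 5.20 to 5.23 in ORMES-9 and 4.78 to 4.89 in fibroblasts, and their summed linear signal over the array was 263 to 290 in fibroblasts against 340 to 409 in the ES lines. ERG was at or below background on all arrays and EMCN above it on 1, while the group means of the other 7 were above it in every group. That mark lies below the array medians of 5.01 to 5.10, so passing it does not show that a gene was expressed. TIE1 averaged 4.55 to 5.07, CDH5 4.53 to 5.61, CLDN5 5.10 to 5.31 and ROBO4 4.96 to 5.42, around those medians. ICAM2, VWF and SOX18 averaged above them in every group. For blood cells, which also carry PECAM1, 9 genes were measured. None passed limma's test between ES lines, also at an unadjusted p under 0.05 (0 of 9 in each comparison), RUNX1 rose in fibroblasts, and PTPRC averaged 3.89 to 4.09 in the 4 groups, below the background mark.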

How the data were processed

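RNA of 12 cultures was hybridised to Affymetrix rhesus arrays, 1 colour each. The submitters' processing notes name RMA as the authors' method for the deposited log2 values. Its version is not given in the sources used here. They were used without further scaling. After removal of 99 control features, 52766 probe sets were fitted in limma 3.58.1 (R 4.3.3) with 1 mean for each of the 4 groups, a moderated variance and Benjamini-Hochberg adjustment over all probe sets. The fibroblast comparison used the mean of the 3 ES line means. Symbols came from the platform annotation, and 24956 probe sets had 1 symbol, 361 several and 27449 none. A listed gene was read by its brightest probe set, judged by the mean of all arrays. The text names every probe set of TEK, KDR, PECAM1 and PTPRB, each pathway gene that passed in any comparison, and the brightest gene of a list where none passed. These 4 genes and the lists were chosen with earlier results of these data known. The number of arrays limits the precision. The letters A, B and C did not pair the arrays. Alternatives were median or quantile scaling, trended and robust variance, dim probe sets left out, only the compared groups, another probe set for each gene, a replicate block and each array left out. The fit was tested on simulated data.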

Additional observations from a re-analysis of the deposited data

How the results depend on the processing

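Across 777 recomputed differences of the 11 probe sets none moved by more than the spread between replicates, and 756 kept their sign; the 21 changes of sign were in differences of at most 0.09, none of which had passed. The count of pathway genes that passed in rPESC-2 minus ORMES-22 was 3, and it was 1 with the arrays of those groups alone and 5 with the probe set of largest SD for each gene, which added HHEX at 1.95 and MEF2C at -1.30. The cause was not tested. Leaving out 1 array at a time gave 1 to 5 there and 2 to 5 in ORMES-9 minus ORMES-22. Without ORMES-22 array A, ELK3 at -1.53 and MEF2C at -1.21 passed in rPESC-2, and SVEP1 at -2.03 and LMO2 at -1.06 in ORMES-9. Over all probe sets, 656 passed in rPESC-2 minus ORMES-22, with 332 from those groups alone and 460 to 1493 with 1 array left out, where the highest count left out ORMES-22 array A. For ORMES-9 minus ORMES-22 the count was 831, with a range of 717 to 1284. A replicate block on the letters gave 631 and 821 probe sets and 3 pathway genes in each comparison with ORMES-22, and changed no count by over 1.5 times. Same-lettered arrays deviated together in 6 of 18 pairs, at a correlation over 0.1, so the letters are not taken as a pairing. PTPRB MmugDNA.35406.1.S1_at had no value where dim probe sets were left out. Fitting the compared groups alone does not apply to the fibroblast comparison, which uses all arrays. Levels near 4.26, as for KDR and 4 probe sets of PECAM1 and PTPRB in ES cells, are limited by background.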

Other observations

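The genes whose levels ran most like TEK, PTPRB and PECAM1 over the 9 ES arrays were found among 11787 named genes by Pearson correlation, as a description over arrays that share lines. For TEK (MmuSTS.1184.1.S1_at) they were MORF4L1, ATP5MJ and MTR, at 0.98, 0.979 and 0.977. MORF4L1, a chromatin reader, averaged 11.23, 10.87 and 8.46 in ORMES-22, rPESC-2 and ORMES-9, but 12.06 in fibroblasts, where TEK was lowest. For PTPRB they were UBD, MESP2 and ZFTA, at 0.987, 0.969 and 0.967. UBD, a ubiquitin-like modifier, also followed PTPRB into fibroblasts, with 5.20, 4.02 and 3.98 in the ES lines and 6.15 in fibroblasts, and a correlation of 0.994 over all 12 arrays. Its averages in rPESC-2 and ORMES-9 lay under the background mark, so among the ES lines only ORMES-22 averaged above it. For PECAM1 they were DNAH9, TRMT2A and MED16, at 0.966, 0.936 and 0.93, where the levels of the ES lines overlapped. The PECAM1 probe set used, MmugDNA.28182.1.S1_at, correlated with the other PECAM1 probe sets at only 0.63 and -0.17 over these arrays. Nothing is therefore read from its likeness to those genes. None is named for KDR, whose levels lay near background.

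Genes that lie near TEK, KDR, PECAM1 and PTPRB in the T2T-MMU8v2.0 assembly were looked at after the values had been seen. None of the measured neighbours of TEK (IFNK, EQTN, IFT74 and LRRC19) passed both limits (adjusted p under 0.05 and 2-fold) in any comparison, and IFT74 differed by 0.17 (standard error 0.11) in ORMES-9 minus ORMES-22, where TEK differed by -2.29. Near KDR, the stem cell factor receptor KIT rose by 1.51 in both rPESC-2 and ORMES-9 against ORMES-22 (limma adjusted p = 0.009 and 0.0062) and fell by 3.99 in fibroblasts, and SRD5A3 rose by 1.14 in fibroblasts. Near PECAM1, TEX2 rose by 2.02 in fibroblasts (limma adjusted p = 3.5e-09), where PECAM1 was also higher, and ERN1 read 0.16. Beside PTPRB, none of CNOT2, KCNMB4, PTPRR and TSPAN8 passed limma's test between ES lines. In fibroblasts PTPRR rose by 1.18 and TSPAN8 by 1.83, and KCNMB4 fell by 3.20. Of 10 measured pluripotency genes 8 fell in fibroblasts and NANOG, read by its only probe set, passed as higher there. It averaged 8.41, 7.95 and 8.25 in ORMES-22, rPESC-2 and ORMES-9 and 9.53 in fibroblasts. Whether this probe set reads NANOG was not tested, so its annotation is in doubt.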
